A study of Mus musculus with 12 samples.

Results

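Pim1, Gadd45b, Birc2, Birc3, Traf1, Traf2, Cflar, Fas, Cd40 and Bcl2l1 are genes of cell survival and death-receptor signalling that are known as targets of the transcription factor NF-kB. Their transcripts were followed in fibroblasts grown from mouse embryos after stimulation with interleukin-1 beta (IL-1b). The 10 genes were taken by symbol, with every probe set whose annotation carries 1 of these symbols and no other, which gave 24 of the 45101 probe sets on the array. The array measures a transcript with 1 or more probe sets, each a group of short probes, and 18193 genes had such a probe set. Of the 24 probe sets, 20 were tested because they reached a signal of 25.5, the overall median, on 2 or more arrays, among 27086 tested probe sets in all. Each gene had at least 1 tested probe set.

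The cells were wild type or had an IRAK4 without kinase activity (kinase dead), an enzyme that joins the interleukin-1 receptor complex through the adaptor MyD88. Each genotype was studied without stimulation after 4 h of growth, after 1 h with 1 ng/ml mouse IL-1b, and after 4 h with the same dose, with 2 arrays for each of the 6 groups and 12 arrays in all. All cells were kept in DMEM with foetal calf serum, and the kinase-dead allele and the embryos are not described further in the labels. The samples of a group are called biological replicates without a named animal or culture, so p-values measure the spread between these samples. The unstimulated group of a genotype is the control at both times, so the 1 h and 4 h comparisons share control arrays, and at 1 h the control had grown for 3 h longer than the stimulated cells. RNA was measured in bulk, so that fewer cells with a transcript and less of it in each cell cannot be told apart.

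In resting cells NF-kB is held in the cytoplasm by IkB proteins, and signalling from the interleukin-1 or TNF receptors frees it to enter the nucleus. There it turns on genes that feed back on the pathway and genes that protect the cell from death. Fas carries a death domain and assembles caspase-8 at the membrane, whereas CD40 has no death domain and signals through TRAF proteins. The product of Cflar, cFLIP, blocks caspase-8 activation, and the products of Birc2 and Birc3, cIAP1 and cIAP2, are ubiquitin ligases that TRAF1 and TRAF2 bring to TNF-family receptors. PIM1 is a protein kinase that promotes survival, GADD45B restrains stress kinase signalling, and Bcl2l1 encodes the mitochondrial survival protein BCL-xL.

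Promoter windows of RefSeq (GRCm38.p6), 250 bases before the transcript start, were listed for 9 of the 10 genes, with 13 windows in all. They are shown for the gene with the largest response at 4 h (Fas), for the neighbouring pair Birc2 and Birc3 on chromosome 9, between which the annotation lists 0 other genes, and for Bcl2l1, a member called in no comparison. The 3 motifs searched on both strands were chosen with the values known: the kappaB consensus, the AP-1 element TGANTCA and the cyclic AMP response element TGACGTCA, of which the last 2 do not overlap in these windows. Capitals mark the match, 5' to 3' on the strand of the gene. The printed Fas and Birc3 stretches, of 238 and 215 bases, are the part of the window before the annotated gene span. Those of Birc2 and Bcl2l1 are 30 bases that hold the match. The first is Fas, chr19:34290409-34290646 (plus strand), the next Birc3, chr9:7873206-7873420 (minus strand, no match), then Birc2, chr9:7837074-7837103 (minus strand), and last Bcl2l1, chr2:152830938-152830967 (minus strand).
Fas: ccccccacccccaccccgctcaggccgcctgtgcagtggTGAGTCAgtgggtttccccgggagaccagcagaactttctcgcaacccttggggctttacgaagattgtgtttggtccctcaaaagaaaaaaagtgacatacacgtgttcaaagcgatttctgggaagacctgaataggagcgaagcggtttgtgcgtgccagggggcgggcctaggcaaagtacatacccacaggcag
Birc3: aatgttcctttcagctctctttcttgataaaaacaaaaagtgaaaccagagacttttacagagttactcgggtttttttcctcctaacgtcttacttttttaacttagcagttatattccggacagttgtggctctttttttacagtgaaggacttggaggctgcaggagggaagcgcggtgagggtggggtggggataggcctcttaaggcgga
Birc2: tgcgcgtctgcTGACGTCAcctcaacggcc
Bcl2l1: tgtttgtgGGGGGTCTCCagcatacgcctc
Positions were counted over the full 250 bases before the start. The Fas window held TGAGTCA at 211 to 205 bases, 1 of the Birc2 windows TGACGTCA at 35 to 28 bases, and 1 of the Bcl2l1 windows GGGGGTCTCC at 242 to 233 bases. These motifs occurred in 6.75%, 1.55% and 7.25% of all 32851 windows of the same length, respectively. Each was found in 1 member window. A match is a description of letters, and nothing about binding was measured here.

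The data show a response of these genes in wild-type cells that differed by gene in its time course and was in part missing from kinase-dead cells. In wild-type cells 8 of the 20 tested probe sets, of 5 genes, were higher after 1 h (limma, adjusted p under 0.05), where 2.89% of all tested probe sets were higher. After 4 h 12 probe sets, of 6 genes, were higher, against 3.46% of all tested. Between 1 h and 4 h 5 probe sets rose and 4 fell, against 7.1% and 7.59% of all tested. In kinase-dead cells 0 member probe sets were called by limma after 1 h, where 2.35% of all were called in either direction, and 1 probe set had an unadjusted p under 0.05. After 4 h 2 rose, where 0.314% of all were higher, and from 1 h to 4 h 2 rose, where 1.54% of all did. The median log2 change over the 10 genes, each at its probe set with the highest mean over the arrays, was 0.43 and 0.80 in wild-type cells at 1 h and 4 h, beside -0.06 and -0.08 over all tested probe sets. In kinase-dead cells these medians were 0.04 and 0.45 beside 0.00 and 0.01. Changes are in log2(signal + 8) and understate those of low signals. The split of all calls depends on the scaling. When arrays were centred on their medians, the median change of all probe sets in wild-type cells at 1 h moved from -0.06 to 0.10, and the calls moved from 784 higher and 1016 lower to 1453 and 464. The calls at 4 h moved from 938 higher and 1100 lower to 1018 and 623, and those between 1 h and 4 h from 1922 and 2057 to 1359 and 2606. Those between 4 h and 1 h in kinase-dead cells moved from 417 and 313 to 217 and 324. Under this scaling 3 of the 46 called pairs of a member probe set and a comparison lost their call. No called member changed direction. Centring moves all changes of a comparison alike, by less than the smallest called member change (-0.34), so directions could not turn.

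**Figure D1:**
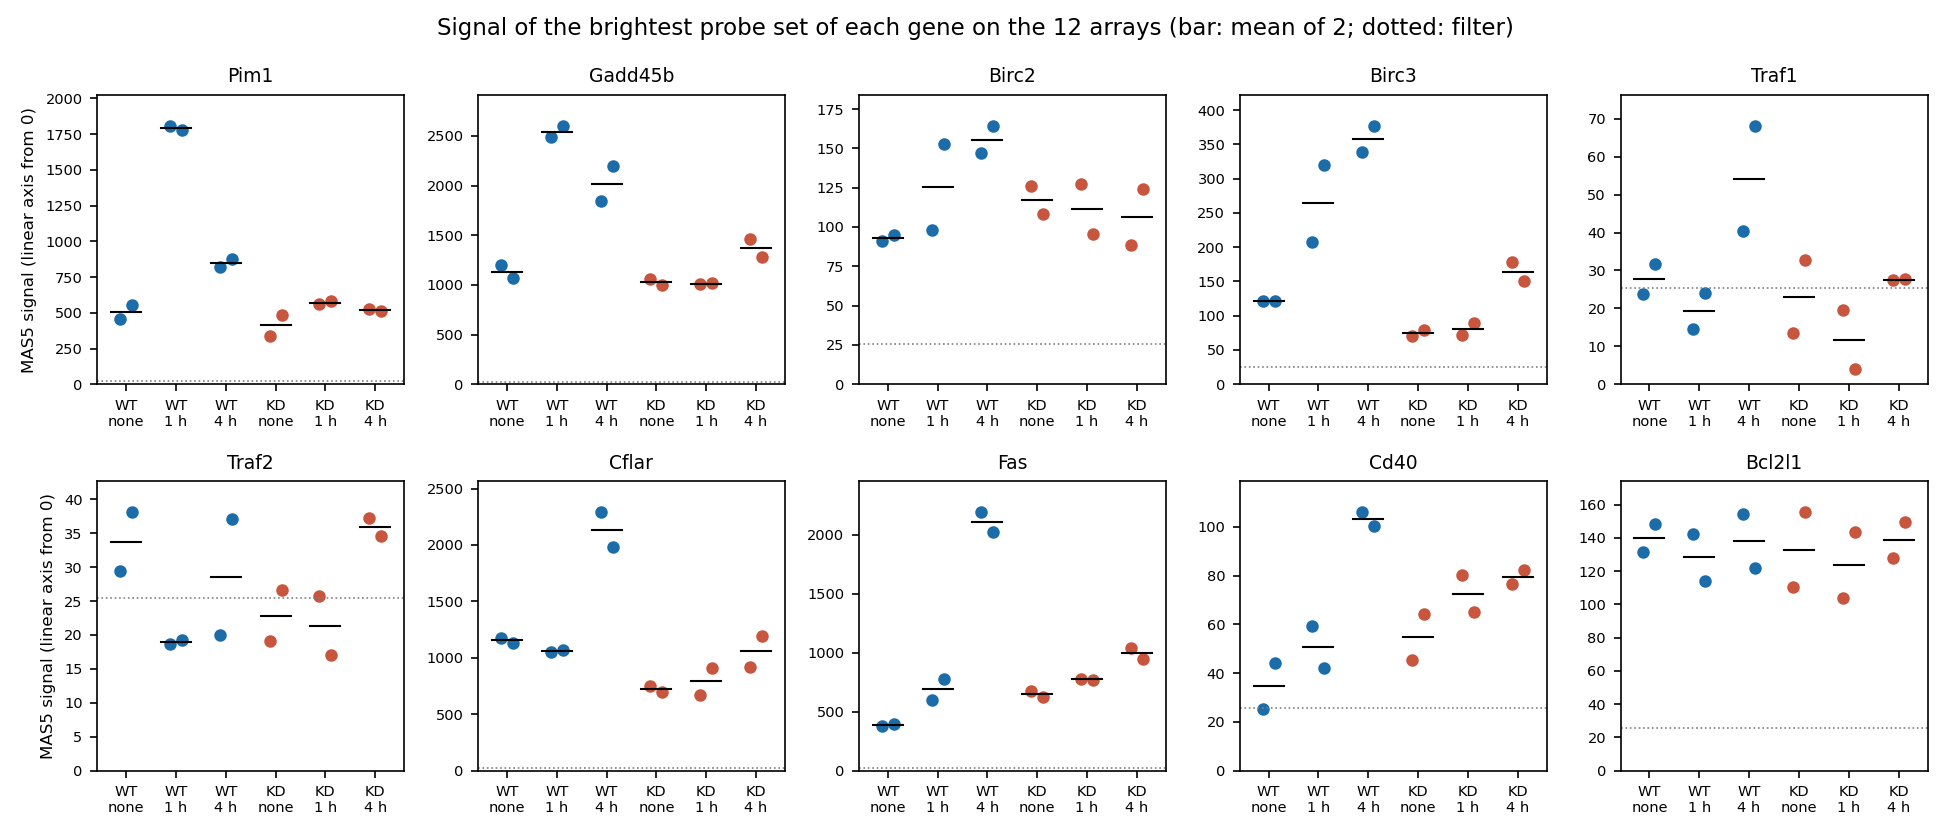
MAS5 signal (linear axes from 0) of the brightest probe set of each gene on the 12 arrays, in wild-type (WT, blue) and kinase-dead (KD, red) cells without stimulation (none) or after 1 h or 4 h of IL-1b. Points are arrays, bars are means of 2 and the dotted line is the filter of 25.5. Pim1 was highest in wild-type cells at 1 h (1776.1 and 1807.5) and Fas at 4 h (2020.9 and 2189.5), while the Bcl2l1 arrays lay between 103.7 and 155.5 with no separation of the groups.

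Fas, the receptor that starts caspase-8 dependent death when bound by Fas ligand, rose in wild-type cells and continued to rise between 1 h and 4 h. Its 1 probe set (1460251_at) gave signals of 375.9 and 390.7 in unstimulated wild-type cells, 599.9 and 779.8 after 1 h, and 2189.5 and 2020.9 after 4 h. The 3 groups did not overlap. The changes from unstimulated cells were 0.82 ± 0.12 (SE) at 1 h (adjusted p = 0.000266) and 2.43 ± 0.12 at 4 h (adjusted p = 2.15e-10, limma). In kinase-dead cells the signals were 678 and 622.1, then 773.8 and 770.2, then 1038.5 and 946.5. The unstimulated kinase-dead arrays were thus above both unstimulated wild-type arrays, by 0.75 ± 0.12 on the log2 scale (adjusted p = 0.00033). The change in kinase-dead cells was 0.25 ± 0.12 at 1 h (adjusted p = 0.327) and 0.60 ± 0.12 at 4 h (adjusted p = 0.0319). The difference in response at 4 h, kinase dead minus wild type, was -1.83 ± 0.17 (adjusted p = 7.01e-06), and at 1 h it was -0.58 ± 0.17 (adjusted p = 0.263). The wild-type changes, the difference of the unstimulated groups and the 4 h response difference of Fas were called under all 24 alternatives, but the kinase-dead change at 4 h was not called in 10 of them. It lost its call without either unstimulated or 4 h kinase-dead array (adjusted p = 0.0833 to 0.27), without either 1 h kinase-dead array (0.0618 and 0.0602) and without wild-type 4 h replicate 1 (0.0501).

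Cd40, a receptor best known on B cells and dendritic cells, rose late in wild-type cells. Its brightest probe set (1439221_s_at) gave 25.1 and 44 in unstimulated cells, 59.2 and 41.9 after 1 h, and 106 and 100.3 after 4 h. The 4 h arrays were above all 4 others, while unstimulated and 1 h arrays overlapped. The change at 4 h was 1.42 ± 0.25 (adjusted p = 0.00163). The other tested probe set (1449473_s_at) gave 23.6 and 23.9, then 18.1 and 31.2, then 79.8 and 84.3, a change of 1.504 ± 0.28 at 4 h (adjusted p = 0.00236). The remaining one (1460415_a_at) was not tested, since it reached the filter on 1 array. It read 2.2 to 5.5 on the 10 arrays other than those of wild-type cells at 4 h, and 24.1 and 40.1 on those 2. In kinase-dead cells the brightest probe set read 45.3 and 64.2, then 80.1 and 65.2, then 76.5 and 82.4, and its change at 4 h was 0.49 ± 0.25 (adjusted p = 0.473). There 1449473_s_at went the other way, with 42.3 and 61.8, then 49.8 and 36.1, then 37.7 and 35.6. Its change at 4 h of -0.41 ± 0.28 was not called (adjusted p = 0.615), though the 4 h arrays were below the unstimulated ones. The tested Cd40 probe sets are named for probes that can match more than 1 transcript, so signal of another transcript cannot be told apart from that of Cd40.

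The Cd40 probe sets differed in the comparison of genotypes. The difference in response at 4 h was -1.91 ± 0.40 for 1449473_s_at (adjusted p = 0.0165) and -0.93 ± 0.36 for 1439221_s_at (adjusted p = 0.241). Part of that of 1449473_s_at was its uncalled kinase-dead change of -0.41 ± 0.28. For 1449473_s_at the unstimulated kinase-dead arrays (42.3 and 61.8) were above the wild-type arrays, by 0.90 ± 0.28 (adjusted p = 0.048), whereas 1439221_s_at differed by 0.58 ± 0.25 (adjusted p = 0.167). The first of these unstimulated differences lost its call in 15 of 22 alternatives, among them leaving out any array other than the 2 of wild-type cells at 1 h (adjusted p = 0.0536 to 0.316) and the replicate block (0.053). The response difference of 1449473_s_at lost its call without wild-type 4 h replicate 2 (0.0616), unstimulated kinase-dead replicate 2 (0.108) or either kinase-dead 4 h array (0.0596 and 0.0748). For Cd40 between 1 h and 4 h in wild-type cells, the rise of 0.94 ± 0.25 of 1439221_s_at (adjusted p = 0.0181) lost its call without wild-type 1 h replicate 2 (0.168) or either 4 h array (0.0884 and 0.0698), and that of 1449473_s_at (1.49 ± 0.28, adjusted p = 0.00137) did not.

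Among the genes of the cIAP and TRAF complex that acts at these receptors, Birc3 rose and the other 3 were not called in any of the 9 comparisons. Birc3, the cIAP gene known as an NF-kB target in many cells, has 2 probe sets. In wild-type cells 1421392_a_at gave 121.5 and 120.8, then 207.5 and 319.9 at 1 h, then 338.5 and 376.7 at 4 h. The 3 groups did not overlap. The change was 1.04 ± 0.19 at 1 h (adjusted p = 0.00261) and 1.499 ± 0.19 at 4 h (2.83-fold, adjusted p = 5.15e-05). Its 1 h call was lost without wild-type 1 h replicate 2 (0.74, adjusted p = 0.0697). The other, 1425223_at, gave 30.4 and 17.9, then 158.1 and 238.2, then 63.3 and 96.1. It was thus highest at 1 h, with a change of 2.68 ± 0.33 (adjusted p = 5.98e-05), and fell by 1.23 ± 0.33 between 1 h and 4 h (adjusted p = 0.0176), over which 1421392_a_at changed by 0.46 ± 0.19 (adjusted p = 0.126). Without wild-type 1 h replicate 2, the higher 1 h array, this last change was 0.76, and leaving out replicate 1 instead makes it smaller. The fall of 1425223_at lost its call without wild-type 1 h replicate 2 (0.196) or 4 h replicate 1 (0.15). Its 4 h change of 1.45 ± 0.33 (adjusted p = 0.0107) did so without unstimulated replicate 2 (0.078) or 4 h replicate 2 (0.124).

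In kinase-dead cells Birc3 1421392_a_at gave 69.9 and 79.2 without stimulation, 71.2 and 89.7 at 1 h and 177.9 and 150.2 at 4 h. The unstimulated and 1 h arrays overlapped and the 4 h arrays stood above both. The change was 0.09 ± 0.19 at 1 h (adjusted p = 0.885) and 1.06 ± 0.19 at 4 h (adjusted p = 0.0182). The 4 h change lost its call without either unstimulated or either 4 h kinase-dead array (adjusted p = 0.0732 to 0.212). The unstimulated level was lower than in wild-type cells, with a difference of -0.65 ± 0.19 (adjusted p = 0.0373) that lost its call without any 1 of the 4 unstimulated arrays (0.0843 to 0.193). The second probe set, 1425223_at, gave 29.5 and 30.7, then 22.3 and 11.2, then 23.1 and 44.6, all below every stimulated wild-type array. Its difference in response at 1 h was -3.34 ± 0.47 (adjusted p = 0.00134), the largest of the member probe sets at that time. The unstimulated arrays of both genotypes and the kinase-dead 1 h arrays were read near or under the filter, so its size is uncertain. It ranged from -3.88 to -2.38 over the alternatives and lost its call with no variance trend (adjusted p = 0.0738). Part of it was an uncalled kinase-dead change of -0.66 ± 0.33 at 1 h (adjusted p = 0.359). For 1421392_a_at the difference in response was -0.95 ± 0.27 at 1 h (adjusted p = 0.261) and -0.44 ± 0.27 at 4 h (adjusted p = 0.488). Between 1 h and 4 h in kinase-dead cells Birc3 1421392_a_at rose by 0.96 ± 0.19 (adjusted p = 0.0109), a call lost without 1 h replicate 1 (0.149) or either 4 h array (0.12 and 0.0545).

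Birc2 lies beside Birc3 and encodes cIAP1, which is present in most resting cells. Its 1 probe set read 91.2 and 95 in unstimulated wild-type cells, 98.2 and 152.7 at 1 h and 146.8 and 164.2 at 4 h, so the 4 h arrays were above the unstimulated ones. The change of 0.69 ± 0.22 at 4 h was not called (adjusted p = 0.0619). It was called when arrays were centred on their median (0.77, adjusted p = 0.037) and when either wild-type 1 h array was left out (0.0447 and 0.0465). In kinase-dead cells all 6 Birc2 arrays lay between 88.3 and 127.1, with overlapping groups.

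Traf1 and Traf2, the adaptors that carry the cIAP proteins, were read near the filter, Traf1 on 6 arrays at or above it and Traf2 on 7. Traf1 (1423602_at) gave 40.4 and 68.1 in wild-type cells at 4 h and 4 to 32.7 on the other 10 arrays, a change of 0.77 ± 0.43 at 4 h (adjusted p = 0.326). Between 1 h and 4 h Traf1 changed by 1.17 ± 0.43 (adjusted p = 0.0806), which was called with a pseudocount of 32 (0.74, adjusted p = 0.0402) and when the fit held only the compared groups (0.0435). Its other probe set reached the filter on 1 array and was not tested. Traf2 ranged from 17 to 38.1, with a change of -0.22 ± 0.34 at 4 h in wild-type cells (adjusted p = 0.756). The 95% intervals of these 4 h changes, -0.14 to 1.68 and -0.94 to 0.49, are wide and include no change. Neither a change nor its absence could be read from these signals.

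**Figure D2:**
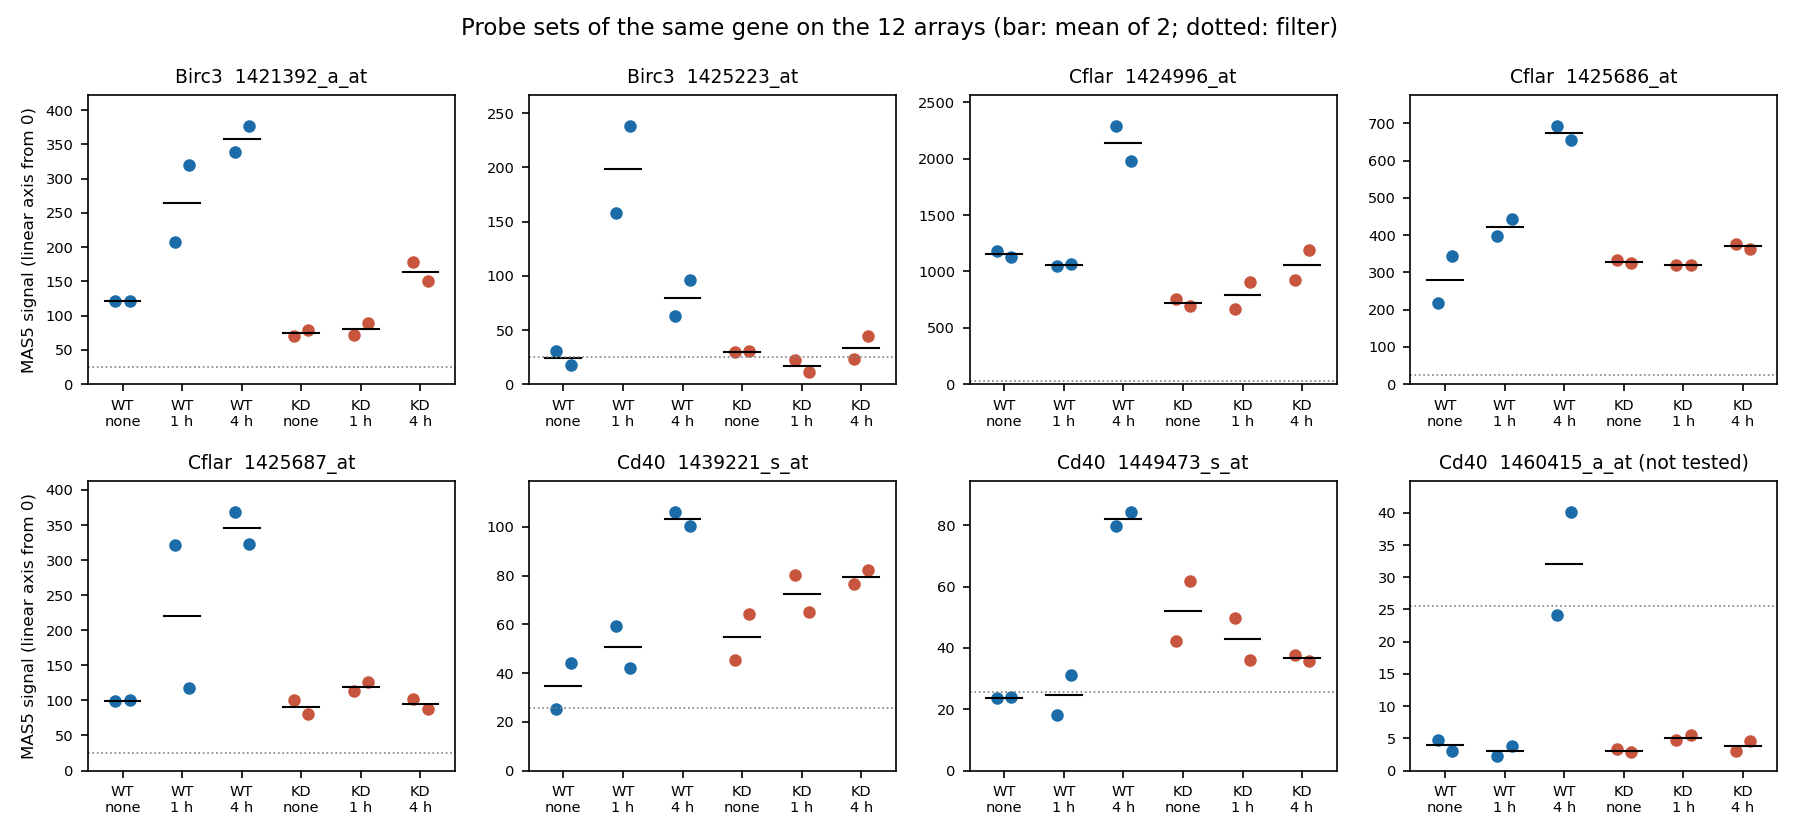
MAS5 signal (linear axes from 0) of probe sets of Birc3, Cflar and Cd40 on the 12 arrays, in wild-type (WT, blue) and kinase-dead (KD, red) cells, with points for arrays, bars for means of 2 and a dotted line at the filter of 25.5. Of the Birc3 probe sets, 1421392_a_at was highest at 4 h (338.5 and 376.7) and 1425223_at at 1 h (158.1 and 238.2).

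Cflar, whose product cFLIP stops caspase-8 at death receptors, rose at 4 h in wild-type cells in 3 of its 5 probe sets. The brightest, 1424996_at, gave 1178.6 and 1131.4 without stimulation, 1051.8 and 1067.7 at 1 h and 2289.9 and 1982.2 at 4 h. The 1 h arrays were not above the unstimulated ones and the 4 h arrays were above all others. The change at 4 h was 0.88 ± 0.14 (1.84-fold, adjusted p = 0.000414). The probe set 1425686_at gave 216.8 and 344, then 397.7 and 444.2, then 692.7 and 656.4, a change of 1.28 ± 0.16 at 4 h (adjusted p = 3.82e-05). The probe set 1425687_at changed by 1.71 ± 0.29 at 4 h (adjusted p = 0.000985), from 98.8 and 100.3 to 368.2 and 323.3. Its 1 h arrays disagreed, at 322.2 and 117.9, and the 1 h change of 0.92 ± 0.29 was not called (adjusted p = 0.0674). That change became 1.62 without 1 h replicate 2, the lower array, and leaving out replicate 1 instead makes it smaller. The 1 h rise of 1425686_at (0.61 ± 0.16, adjusted p = 0.0274) became 0.28 (adjusted p = 0.231) without unstimulated replicate 1, and 0.93 without unstimulated replicate 2. It was not called either without 1 h replicate 1 (adjusted p = 0.0735) or 1 h replicate 2 (0.201). The dimmer Cflar probe sets 1453482_at (29.7 to 67.8) and 1449317_at (8 to 42.2) were called in no comparison.

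In kinase-dead cells 0 Cflar probe sets were called at 1 h or 4 h by limma, with 0 and 1 at an unadjusted p under 0.05. Over all tested probe sets 2.35% were called at 1 h in these cells and 0.314% were higher at 4 h. A count of 0 of 5 lies near these shares. The brightest read 752.4 and 693.4, then 670.6 and 910.7, then 921.2 and 1189.5, with a change at 4 h of 0.53 ± 0.14 (adjusted p = 0.116). Its 4 h arrays were above the unstimulated ones, and the change was called when the fit held only the compared groups (0.045). Without stimulation 1424996_at was lower than in wild-type cells, with a difference of -0.67 ± 0.14 (adjusted p = 0.00323) that was not called with no variance trend (0.067). The difference in the 4 h response was -1.11 ± 0.22 for 1425686_at (adjusted p = 0.0142), -1.64 ± 0.41 for 1425687_at (adjusted p = 0.0505) and -0.35 ± 0.19 for 1424996_at (adjusted p = 0.431). In 1425686_at the kinase-dead arrays read 319.2 to 377.4 at all times. That Cflar response difference lost its call without wild-type 4 h replicate 1 (0.0591), unstimulated kinase-dead replicate 1 (0.0518) or either kinase-dead 4 h array (0.0523 and 0.0734). That of 1425687_at was called in 9 of its alternatives, among them the replicate block (0.0338) and leaving out either wild-type 1 h array (0.00172 and 0.00145).

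Pim1 and Gadd45b were the members that rose most at 1 h by their brightest probe sets and were lower at 4 h than at 1 h in wild-type cells. Pim1 (1435458_at) gave 459.1 and 551.9 without stimulation, 1807.5 and 1776.1 at 1 h and 817.5 and 877.9 at 4 h. The 3 groups did not overlap. The change was 1.82 ± 0.14 at 1 h (3.52-fold, adjusted p = 1.32e-07), and Pim1 then fell by 1.07 ± 0.14 (adjusted p = 3.37e-05) to a level 0.74 ± 0.14 above unstimulated cells (adjusted p = 0.0021). The 4 h change of Pim1 was not called with no variance trend (adjusted p = 0.0524). In kinase-dead cells the arrays gave 340.9 and 484.8, then 563.2 and 579.9, then 529.5 and 512.8. The stimulated kinase-dead arrays were above the unstimulated ones and below every stimulated wild-type array. The kinase-dead change at 1 h of 0.48 ± 0.14 was not called (adjusted p = 0.074). This depended on the arrays in the fit, since the change was called without either unstimulated wild-type array, where it stayed at 0.48. It became 0.73 without unstimulated kinase-dead replicate 2, the higher unstimulated array, and leaving out replicate 1 instead makes it smaller. The difference in the 1 h response was -1.33 ± 0.19 (adjusted p = 0.00194) and in the 4 h response -0.39 ± 0.19 (adjusted p = 0.372). The first was not called when limma was run with no trend of variance on signal (adjusted p = 0.143). The other Pim1 probe set, 1423006_at, read 1.8 to 10.4 and was not tested.

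Gadd45b, whose product binds the stress kinase activator MKK7, rose at both times in wild-type cells in all 3 of its probe sets. Of these, 1449773_s_at is named for probes that can match more than 1 transcript, so signal of another transcript cannot be told apart there. The brightest, 1450971_at, gave 1202.1 and 1067 without stimulation, 2484.6 and 2599.6 at 1 h and 1840.9 and 2194.2 at 4 h. The 3 groups did not overlap. The change was 1.16 ± 0.10 at 1 h (adjusted p = 1.06e-06) and 0.82 ± 0.10 at 4 h (adjusted p = 3.82e-05). Between 1 h and 4 h it fell by 0.34 ± 0.10 (adjusted p = 0.0342), a call lost without either 1 h array (0.102 and 0.188) or without 4 h replicate 1, where the change was -0.21 (0.286). The probe set 1420197_at changed by 1.73 ± 0.14 at 1 h and 1.11 ± 0.14 at 4 h, and 1449773_s_at by 1.39 ± 0.19 and 0.87 ± 0.19. The last of these lost its call without unstimulated replicate 1 (0.0567) or 4 h replicate 2 (0.0541). In kinase-dead cells the brightest gave 1055.1 and 996.8, then 1006.3 and 1017.7, then 1458.2 and 1282.1. The 1 h arrays lay within the unstimulated range and the 4 h arrays above it, with changes of -0.02 ± 0.10 (adjusted p = 0.961) and 0.41 ± 0.10 (adjusted p = 0.103). The 4 h change was called without either unstimulated wild-type array (0.0323 and 0.0329).

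The difference in the 1 h response of Gadd45b was called in all 3 probe sets, at -1.18 ± 0.14, -1.66 ± 0.27 and -1.85 ± 0.20 (adjusted p = 0.000314, 0.00501 and 7.6e-05 for 1450971_at, 1449773_s_at and 1420197_at). Without the variance trend the adjusted p was 0.0965, 0.22 and 0.0333, and that of 1449773_s_at was 0.0579 without wild-type 1 h replicate 2. At 4 h the difference was -0.41 ± 0.14 (adjusted p = 0.19), -0.90 ± 0.27 (0.106) and -0.98 ± 0.20 (0.0168). That of 1449773_s_at became -1.30 (0.00665) without kinase-dead 4 h replicate 1, where the 2 arrays read 577.3 and 331.7. That of 1420197_at lost its call without wild-type 4 h replicate 2 (0.0722), unstimulated kinase-dead replicate 2 (0.0717) or either kinase-dead 4 h array (0.0723 and 0.0697). Between 1 h and 4 h in kinase-dead cells Gadd45b 1450971_at rose by 0.43 ± 0.10 (adjusted p = 0.032). This call was lost without any 1 of the kinase-dead 1 h and 4 h arrays (0.0771 to 0.25) or either wild-type 1 h array (0.0507 and 0.0508).

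Bcl2l1, which encodes the mitochondrial survival protein BCL-xL, was called by limma in 0 of its 27 pairs of a tested probe set and a comparison, and 2 pairs had an unadjusted p under 0.05. Over all tested probe sets at most 7.1% were higher and 7.59% lower in any comparison, so few calls would be met at these shares. The brightest (1420888_at) read 131.5 and 148.4 in unstimulated wild-type cells, 142.3 and 114.3 at 1 h and 154.6 and 121.9 at 4 h. In kinase-dead cells it read 110.3 and 155.5, then 103.7 and 143.4, then 128.1 and 149.6, and within each genotype the groups overlapped. The wild-type change at 4 h was -0.02 ± 0.20 (adjusted p = 0.966), with a 95% interval from -0.45 to 0.41. The other tested probe sets, 1426191_a_at and 1420887_a_at, ranged from 92.9 to 145.9 and from 45.7 to 109.9. They gave the 2 pairs named above, in which the groups did not overlap. Without stimulation 1426191_a_at was higher in kinase-dead (125.6 and 143.6) than in wild-type cells (103.2 and 92.9), by 0.43 ± 0.18 (adjusted p = 0.16). Between 1 h (63.4 and 109.9) and 4 h (51 and 56.3) in kinase-dead cells 1420887_a_at changed by -0.57 ± 0.27 (adjusted p = 0.306). The fourth, 1426050_at, stayed under the filter on all arrays (0.6 to 15.8).

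**Figure D3:**
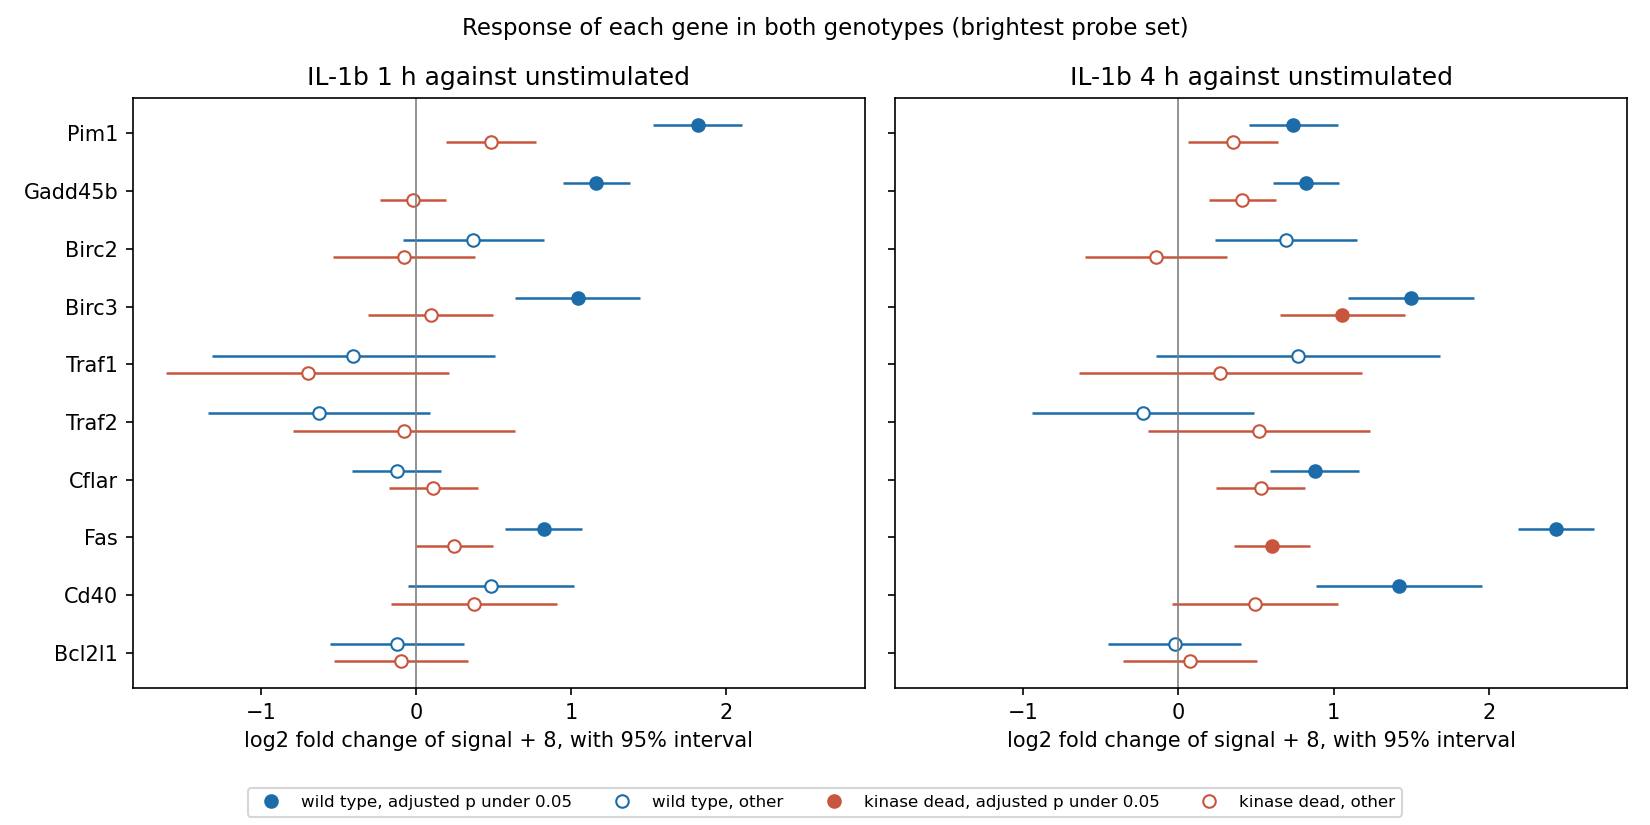
log2 change of signal + 8 against unstimulated cells of the same genotype at 1 h (left) and 4 h (right), for the brightest probe set of each gene, with limma 95% intervals. Filled points are called at an adjusted p under 0.05, blue for wild-type and red for kinase-dead cells. In wild-type cells Pim1 (1.82) and Gadd45b (1.16) led at 1 h and Fas (2.43) at 4 h.

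Between the genotypes without stimulation 2 member probe sets were higher and 2 lower in kinase-dead cells, where 5.48% and 5.33% of all tested probe sets were higher and lower. They are Fas and Cd40 1449473_s_at, both higher, and Cflar 1424996_at and Birc3 1421392_a_at, both lower. With arrays centred on their median the calls over all probe sets moved from 1484 higher and 1445 lower to 1773 and 946. The labelled cell type was checked with 10 fibroblast markers, all of which passed the filter, with a summed signal of 28670.4 to 34195.8. Of 10 macrophage markers 8 passed the filter, and their summed signal was 264.1 to 319.3 in wild-type and 576.8 to 685.9 in kinase-dead arrays. Of 6 neural and glial markers 5 were matched and passed, with 199.8 to 324.8 in wild-type and 558.9 to 645.8 in kinase-dead arrays. The part of these markers in the genotype differences of Fas, Cd40, Cflar and Birc3 was not tested. Of 10 B cell and dendritic cell markers 9 were matched and 3 passed, with a sum of 94.8 to 164.1 over all arrays. Within wild-type cells the macrophage sum was 264.1 to 282.1 without stimulation, 288.3 to 319.3 at 1 h and 301.8 to 304.5 at 4 h. RNA integrity was read from actin, whose 3' over 5' signal averaged 2.85 ± 0.0178 (SD, n = 2) in kinase-dead cells without stimulation, against group means of 2.36 to 2.49 elsewhere, and its part was not tested.

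The response differed between the genotypes for 5 member probe sets at 1 h and 4 at 4 h, and in each of these 9 cases the kinase-dead change was the lower. Over all tested probe sets 0.299% at 1 h and 0.986% at 4 h had a lower change in kinase-dead cells. At 1 h these were Pim1, the 3 Gadd45b probe sets and Birc3 1425223_at, and at 4 h Fas, Cd40 1449473_s_at, Cflar 1425686_at and Gadd45b 1420197_at. The median difference over the 10 genes was -0.37 at 1 h and -0.43 at 4 h, beside 0.05 and 0.09 over all tested probe sets. By limma with no variance trend, 1 of the 5 differences at 1 h (Gadd45b 1420197_at, adjusted p = 0.0333) and 1 of the 4 at 4 h (Fas, adjusted p = 0.0117) remained called. With median centring the calls over all probe sets moved from 18 higher and 81 lower to 10 and 118 at 1 h, and from 201 and 267 to 84 and 355 at 4 h.

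**Figure D4:**
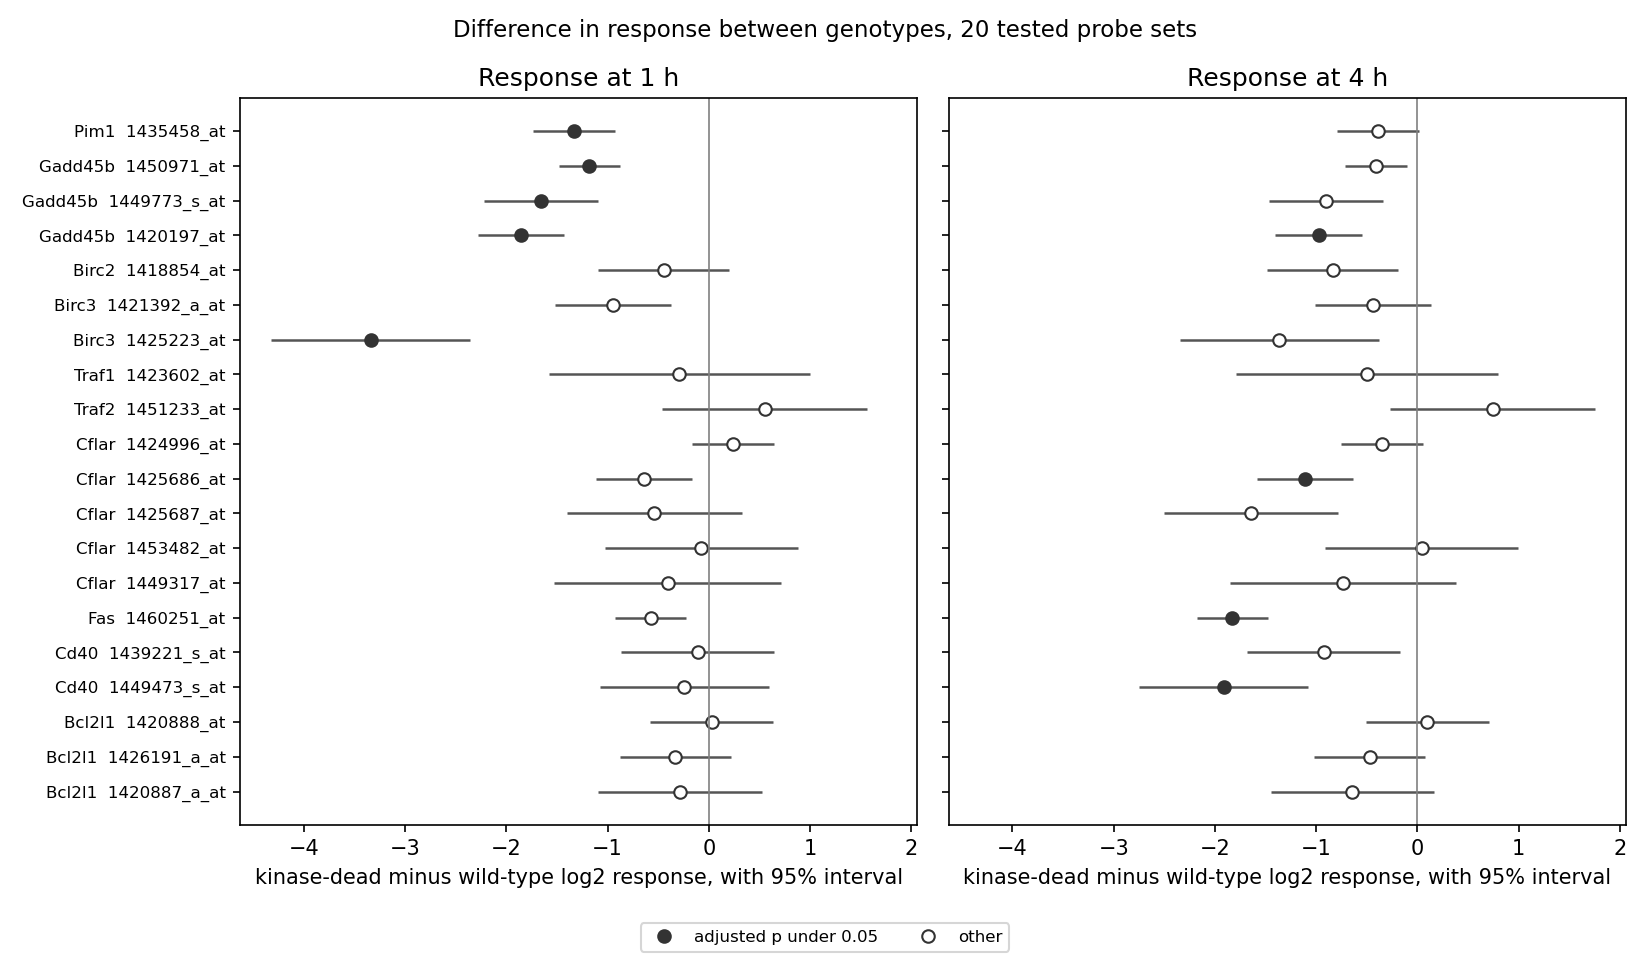
Difference in response (kinase-dead minus wild-type log2 change) at 1 h (left) and 4 h (right) of the 20 tested probe sets, with limma 95% intervals and filled points at an adjusted p under 0.05. The 5 filled points at 1 h and the 4 at 4 h lie below 0, from -3.34 (Birc3 1425223_at) to -0.98 (Gadd45b 1420197_at).

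Other genes of the pathway were taken from 10 lists by role, with 79 genes, of which 69 were matched and 59 tested, each at its brightest probe set. In wild-type cells 9 were higher and 3 lower at 1 h, where 2.89% of all tested probe sets were higher and 3.75% lower. At 4 h 14 were higher and 3 lower, against 3.46% and 4.06% of all. The counts of lower genes thus lay near the share over all tested probe sets, and those of higher genes above it. The list of other NF-kB survival genes held 5 of the 9 higher genes at 1 h and 7 of the 14 at 4 h. All lists were chosen with earlier results of these data known, so this excess is no test of the pathway. In kinase-dead cells 4 of the 59 genes were higher and 1 lower at 1 h, against 1.17% and 1.18% of all. At 4 h 4 of the 59 were higher, against 0.314%. All 7 other NF-kB survival genes were higher at 4 h in wild-type cells. Among them Tnfaip3, encoding the ubiquitin-editing inhibitor A20, changed by 3.47 ± 0.15, and Sod2, encoding mitochondrial superoxide dismutase, by 1.97 ± 0.13. In kinase-dead cells 3 of the 7 were higher at 4 h, namely Ier3 (1.29 ± 0.10), Tnfaip3 (1.18 ± 0.15) and Plk2 (0.66 ± 0.13). Between the genotypes the 4 h response was lower in kinase-dead cells for Tnfaip3 (-2.29 ± 0.21, adjusted p = 7.02e-06), Sod2 (-1.85 ± 0.18, adjusted p = 1.27e-05) and Tnfaip8 (-1.16 ± 0.18, adjusted p = 0.00216). With Bid, 4 of the 59 genes had a lower 4 h response, against 0.986% of all tested probe sets, and 1, Gadd45g, had a higher one (0.81 ± 0.19, adjusted p = 0.0413), against 0.742%.

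The partners of Fas and Cd40 were read from the lists of receptors, adaptors, ligands and non-canonical NF-kB genes. Of 8 tested death receptors and TNF-receptor relatives, 0 were called at 4 h in wild-type cells by limma (1 at an unadjusted p under 0.05). Over all tested probe sets 3.46% were higher and 4.06% lower at 4 h, so 0 of 8 lies near these shares. At 1 h Tnfrsf10b rose by 0.68 ± 0.17 and Tnfrsf11b, the decoy receptor osteoprotegerin, fell by 1.00 ± 0.13. These were 1 higher and 1 lower of 8, where 2.89% and 3.75% of all tested were. Of 10 tested adaptors and kinases, Tank (0.82 ± 0.12) and Tnip1 (1.01 ± 0.18), both regulators of NF-kB signalling, were higher at 4 h in wild-type cells, 2 of 10 where 3.46% of all tested probe sets were higher, while Fadd (0.02 ± 0.23) and Casp8 (0.14 ± 0.15) were not called. Of the non-canonical NF-kB genes, Relb rose by 1.40 ± 0.23 at 4 h in wild-type cells (adjusted p = 0.000654), and the other 4 tested were not called. This was 1 of 5, where 3.46% of all tested probe sets were higher. In kinase-dead cells 0 of the 5 were called at 4 h against unstimulated cells. Between 1 h and 4 h in these cells Relb rose by 1.45 ± 0.23 (adjusted p = 0.00176), where 1.54% of all tested were higher. All 5 had an unadjusted p under 0.05 by limma there. Of 8 listed ligands 2 were tested, and Fasl and Cd40lg, which encode the ligands of these receptors, were not among them.

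Among relatives of the survival members, Bid, whose product carries the caspase-8 signal to mitochondria, rose by 1.80 ± 0.15 at 4 h in wild-type cells (adjusted p = 3.41e-07), and its 4 h response differed by -1.28 ± 0.21 in kinase-dead cells (adjusted p = 0.003). Mcl1, a survival relative of Bcl2l1, rose at 1 h in both genotypes, by 0.59 ± 0.10 and 0.64 ± 0.10. Gadd45a, a relative of Gadd45b, was higher at 4 h in both (0.84 ± 0.10 and 0.51 ± 0.10), whereas Gadd45g fell by 1.27 ± 0.14 in wild-type cells. Between 1 h and 4 h Gadd45g fell in both genotypes, with changes of -1.51 ± 0.14 in wild-type and -0.94 ± 0.14 in kinase-dead cells (adjusted p = 1.1e-06 and 0.000988). Of the 6 other IAP proteins and antagonists, 0 were called at 1 h or 4 h against unstimulated cells in either genotype by limma, with 1 or 2 at an unadjusted p under 0.05 in each of these comparisons. Over all tested probe sets 2.89% were higher and 3.75% lower at 1 h in wild-type cells, and 3.46% and 4.06% at 4 h. A count of 0 of 6 lies near these shares. Pim2 and Pim3 were not called in these comparisons either. Of the 4 tested GADD45 and PIM relatives, 3 had an unadjusted p under 0.05 by limma in kinase-dead cells at each time. In wild-type cells these counts were 1 at 1 h and 2 at 4 h. Over all tested probe sets 2.35% were called at 1 h in kinase-dead cells, and 0.314% were higher at 4 h.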

How the data were processed

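RNA of 12 fibroblast samples was measured on 1-colour Affymetrix Mouse Genome 430 2.0 arrays, after RNeasy purification and NuGEN Ovation labelling per the labels. The deposited values are MAS5 signal intensities per the submitters' processing notes, on a linear scale, and the MAS5 version is not given in the sources used here. On every array the mean signal was 150 after 2% was trimmed at each end, so arrays were scaled. Detection calls were not used here. Array medians were 23 to 28.3, and the small number of arrays limits the precision. Control probe sets (64) were left out.

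Groups came from the sample titles. The title of unstimulated wild-type replicate 1 lacks the genotype, and it was placed by the series design, with 6 samples a genotype. Symbols came from the platform annotation, where 34945 probe sets carry 1 symbol.

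Signals were analysed as log2(signal + 8), with no further normalization. Probe sets at or above 25.5 on at least 2 arrays (27086) entered limma 3.58.1 in R 4.3.3, with 6 group means, 6 residual degrees of freedom, a variance trend, two-sided tests and p-values adjusted by Benjamini and Hochberg over all probe sets, separately for the 9 comparisons; calls are at an adjusted p under 0.05. A gene stands at its probe set with the highest mean, called its brightest, and no probe set's level was set against another's. All probe sets of the 10 members are accounted for, and of each pathway list at most 4 called genes were named by size of change, with uncalled genes named after their values were seen. The 3 genes most like each member were taken by Pearson r over the arrays. Members, lists and motifs were chosen with earlier results of these data known. Alternatives covered the pseudocount, filter, scaling, variance model, samples in the fit, replicate block, 1 probe set a gene, and leaving out each array. Same-numbered arrays did not deviate together (correlations of -0.0316 to 0.073 over 15 pairs of groups). The script was tested on simulated data. Figures were drawn with matplotlib 3.10.9.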

Additional observations from a re-analysis of the deposited data

Results flagged for a closer look

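The following responses differed between the genotypes by limma's test of the difference itself (kinase dead minus wild type, log2 scale), which marked them for a closer look. In Gadd45b the 1 h response differed by -1.18 in 1450971_at, -1.66 in 1449773_s_at and -1.85 in 1420197_at, and the 4 h response by -0.98 in 1420197_at. In Birc3 the 1 h response of 1425223_at differed by -3.34. In Pim1 the 1 h response differed by -1.33. At 4 h the response differed by -1.11 in Cflar 1425686_at, by -1.91 in Cd40 1449473_s_at and by -1.83 in Fas. Groups of 2 arrays are too small to test single arrays as outliers.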

How the results depend on the processing

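Of the 46 called pairs of a member probe set and a comparison, 22 kept their call under every alternative run and 24 lost it under at least 1. Over 1077 alternative values, 972 kept direction and call, 105 lost the call and 0 reversed. Many alternatives leave the estimate itself unchanged and could not reverse it. Among these are the variance model, the filter and leaving out an array of a group not compared. With no variance trend 23 of the 46 pairs lost their call. The following counts are of member genes at their brightest probe sets. With no variance trend the members called in wild-type cells at 4 h went from 6 to 5, those between 4 h and 1 h from 5 to 3, kinase-dead 4 h from 2 to 0, kinase-dead 4 h against 1 h from 2 to 0, the unstimulated genotypes from 3 to 1, and the 1 h response difference from 2 to 0. With no filter on low values, and with median centring, the members called in kinase-dead cells at 4 h went from 2 to 1, and at 4 h against 1 h from 2 to 1. When the fit held only the compared groups, 4 members were called in kinase-dead cells at 4 h. Leaving out 1 array gave 3 to 5 members in wild-type cells at 4 h against 1 h, 0 to 1 in kinase-dead cells at 1 h, 0 to 3 at 4 h and 0 to 2 at 4 h against 1 h. Over all tested probe sets, the calls with no variance trend went from 1800 to 897 in wild-type cells at 1 h, from 2038 to 1119 at 4 h, from 637 to 64 and from 110 to 24 in kinase-dead cells, from 2929 to 1752 for the unstimulated genotypes, and from 99 to 36 and from 468 to 119 for the response differences. In kinase-dead cells between 4 h and 1 h they went from 730 to 77. Leaving out unstimulated wild-type replicate 1, which was placed by the series design, gave 166 and 999 calls for the response differences. The causes were not tested. With the replicate number as a block the members called stayed at 4 and 6 in wild-type cells at 1 h and 4 h and at 2 and 1 in the response differences. The block ended the call of Cd40 1449473_s_at in the unstimulated genotypes (adjusted p = 0.053) and added calls of Cflar 1425687_at at 1 h in wild-type cells (0.0471) and in the 4 h response difference (0.0338). Traf1, Traf2 and Cflar 1449317_at were read near the filter, which limits what could be detected. Birc3 1425223_at was read near or under the filter without stimulation and in kinase-dead cells at 1 h, which limits the size of its response difference.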

Other observations

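The patterns over the 12 arrays were set against those of all other tested genes by Pearson's r of log2(signal + 8). These are descriptions: the arrays fall into groups of 2, and genes that share a treatment response correlate. Pim1 was most like Gem (0.972), Phlda1 (0.958) and Ptger4 (0.95), and Gadd45b most like Pnrc1 (0.959), Tnfaip3 (0.954) and the chemokine gene Cxcl2 (0.949). Birc3 was most like Ccl20 (0.97), Ctps (0.968) and Ccl7 (0.965), of which Ccl20 and Ccl7 encode chemokines. Cflar was most like Dram1 (0.972), Rab8b (0.971) and Raph1 (0.963), Fas most like Zfpm2 (0.96), Cdk6 (0.957) and Plscr1 (0.956), and Cd40 most like Eda2r (0.943), Igsf3 (0.938) and Map4k4 (0.927). The highest values were lower for Birc2 (Ing5, 0.869), Traf2 (Pla2g4e, 0.9) and Bcl2l1 (Ppfia4, 0.913), and for Traf1 the first was Riok2 (0.934).

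Between members, r was 0.899 for Gadd45b and Birc3, 0.89 for Pim1 and Gadd45b, 0.846 for Fas and Cd40 and 0.827 for Birc3 and Cflar, over the same 12 arrays.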
